A study of Mus musculus with 28 samples.

Results

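The genes described here are the tumour suppressor gene Trp53, which encodes p53, and 9 genes that p53 is known to switch on: Mdm2, Cdkn1a, Ccng1, Zmat3, Bax, Bbc3, Phlda3, Sesn2 and Gdf15. They were taken by symbol, 10 genes of the 53392 that the transcript files name. The series covers kidneys of male FVB mice after ischemic injury. Its 28 samples form 10 groups, namely 2 cell types (proximal tubular cells collected by microdissection, and endothelial cells pulled from digested kidney with CD31 microbeads), each from injured mice given exosomes (EXO), injured mice given a miR-486-5p mimic, injured mice given scrambled miRNA (SCB), injured mice with no treatment (IRI), and sham mice. Each group has 3 samples, apart from 2 in each mimic group. Levels in single libraries were analysed for the EXO, mimic and SCB groups (16 libraries, 8 of each cell type). All of these mice were injured, and SCB is the treatment control. IRI and sham mice enter only through the 12 comparison tables that the authors deposited, and the labels call those samples a reanalysis of an earlier series, so untreated or sham status and the earlier series cannot be told apart.

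p53 is a transcription factor that is kept scarce by Mdm2, the ubiquitin ligase that marks it for destruction. When DNA is damaged or a cell is otherwise stressed, p53 protein is stabilised, so its activity can change without a change in its own mRNA, and it then raises genes that stop the cell cycle (Cdkn1a), drive mitochondrial cell death (Bax and Bbc3) or limit growth signalling (Sesn2 and Phlda3). It also raises Mdm2, which closes a feedback loop. In the kidney, ischemia followed by reperfusion is a known trigger of this response in proximal tubules, and several of the targets, Gdf15, Cdkn1a and Sesn2 among them, also answer to stress signals that bypass p53.

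On build GRCm38, in the coordinates of the transcript annotation, Trp53 lies at chr11:69580359-69591873 (plus strand), Cdkn1a at chr17:29090976-29100727 (plus), Mdm2 at chr10:117688875-117710758 (minus), Zmat3 at chr3:32334792-32366014 (minus) and Gdf15 at chr8:70629393-70632456 (minus). These are whole genes, and counts were summed over all their annotated transcripts.

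The DNA element that p53 binds is a 20-position consensus, here searched without a spacer. It reads the same on both strands, so a search of 1 strand covers both. RefSeq promoter windows on build GRCm38.p6 (250 bases before to 50 after a start) matched 9 of the 10 genes in 13 windows, with no entry for Zmat3. The closest matches stood in windows of Cdkn1a and Ccng1, each with 19 of 20 positions, a score that 29 of all 32851 promoter windows reached (0.0883%). They are shown with flanking sequence up to at most the base before the start, and the 20 positions are in capitals. The first stretch shown is chr17:29090888-29090978 on the plus strand. Its 20 positions lie 51 to 32 bases before the upstream start of Cdkn1a and end 2822 bases before the start of its main transcript. The second stretch shown is chr11:40755422-40755521 on the minus strand. Its 20 positions lie 195 to 176 bases before the start of Ccng1.
Cdkn1a: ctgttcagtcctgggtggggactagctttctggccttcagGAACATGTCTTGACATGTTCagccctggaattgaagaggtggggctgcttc
Ccng1: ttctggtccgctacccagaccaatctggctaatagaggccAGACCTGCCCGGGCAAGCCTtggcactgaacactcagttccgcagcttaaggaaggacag

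One window each of Trp53, Bax and Bbc3 held a 17 of 20 match, which 2067 of the 32851 windows reached or passed (6.29%). These are shown as the element alone with the mismatched positions in lower case, at chr11:69580284-69580303 (plus strand), chr7:45467090-45467109 (minus) and chr7:16309486-16309505 (plus).
Trp53: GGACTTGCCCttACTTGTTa
Bax: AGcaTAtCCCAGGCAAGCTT
Bbc3: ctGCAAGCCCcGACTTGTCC
The other 8 windows, which include the second Cdkn1a window and all windows of Mdm2, Phlda3, Sesn2 and Gdf15, had a best match of 14 or 15, and 15 was also the commonest best match among all windows. A match is a resemblance of letters, and binding was not measured.

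**Figure D1:**
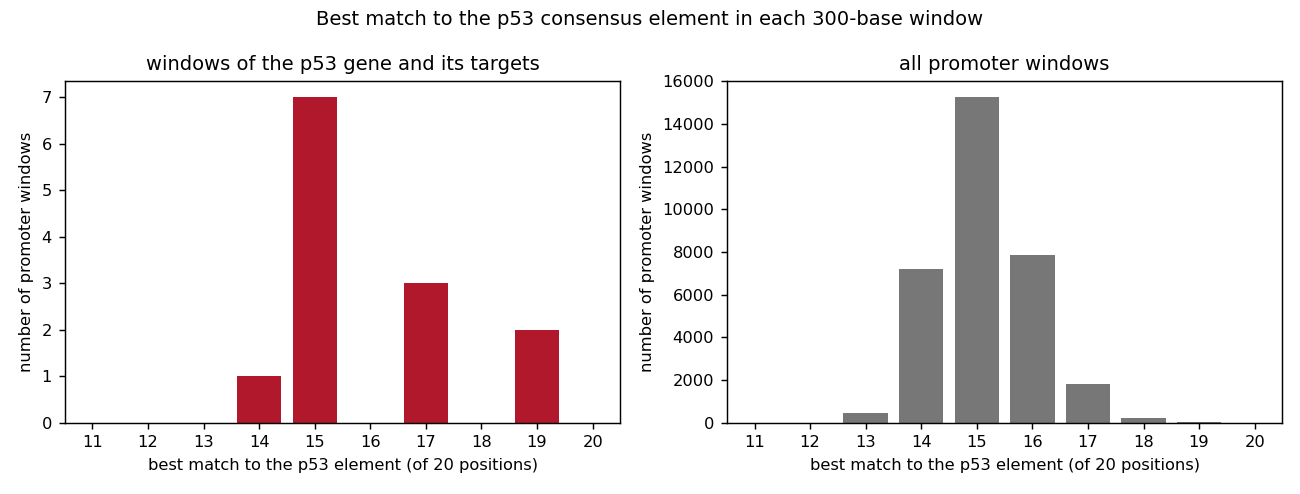
Number of 300-base promoter windows (vertical axis) by the best match to the 20-position p53 element (horizontal axis), for the 13 windows of Trp53 and its targets (left, red) and all 32851 windows (right, grey). Most windows peak at 15 matches in both panels, and 2 of the 13 windows, of Cdkn1a and Ccng1, reach 19.

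Depth ran from 8273783 to 25326882 estimated reads per library. Markers were checked in TPM, a library's transcript abundance per length on a fixed total, summed over each list. The 10 endothelial markers summed to 323 to 621 TPM in endothelial libraries and 24.4 to 58.0 in tubular libraries, and Pecam1 (CD31) ran from 34.7 to 70.6 against 3.92 to 6.53 TPM. Endothelial libraries nevertheless held 3579 to 13694 TPM of 4 thick ascending limb markers and 1525 to 14367 TPM of 10 proximal tubule markers, above their endothelial sum in each library, with the highest proximal tubule value in EXO replicate 1. Tubular libraries had 28638 to 39493 TPM of proximal tubule markers under EXO, 28929 and 41487 under mimic, and 13217 to 20080 under SCB. Injured-tubule markers (Havcr1, Lcn2, Krt20, Sox9, Vcam1 and Cryab) were summed too. The sums were 14.3 (median, range 7.36 to 18.1) in tubular EXO, 4.60 and 12.3 in tubular mimic, and 271 (26.9 to 517) TPM in tubular SCB. In endothelial EXO, mimic and SCB they were 98.9 to 268, 166 and 176, and 571 to 741 TPM. In endothelial libraries Lcn2 ran from 305 to 419 TPM in SCB and 12.1 to 137 in EXO, with 7.41 and 18.8 in mimic. Havcr1 ran from 33.5 to 260 TPM in SCB and 0.631 to 22.4 in EXO, with 0.113 and 1.35 in mimic. Lcn2 and Havcr1 together made up most of each endothelial SCB sum, so these sums do not show that every marker fell. The share of mitochondrially encoded reads was 9.64% to 14.3% in tubular EXO, 8.30% and 5.37% in tubular mimic, and 4.51% to 9.73% in tubular SCB. In endothelial libraries it was 14.6% to 23.8% in EXO, 15.8% and 14.6% in mimic, and 9.08% to 14.3% in SCB. In such cell mixtures fewer cells of a type and less RNA per cell cannot be told apart, and the part of these differences in the results that follow was not tested.

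All 10 genes passed the low-count filter in both cell types. Set side by side per length, in TPM over transcripts with an effective length of at least 100 bases, Ccng1, a cyclin-like protein that recruits a phosphatase to Mdm2, was the most abundant in tubular libraries, with a median of 40.5 TPM (31.9 to 47.6 over 8 libraries). Bax (20.9), Mdm2 (15.4), Trp53 (12.2), Gdf15 (7.44), Sesn2 (3.92), Cdkn1a (1.96), Zmat3 (1.30), Bbc3 (0.869) and Phlda3 (0.733) followed in median TPM. Only Ccng1 stood clear of its neighbour, and each later neighbouring pair had overlapping ranges. In endothelial libraries the order of median TPM was Ccng1 (30.3), Gdf15 (26.4), Cdkn1a (15.8), Bax (15.4), Trp53 (12.4), Mdm2 (11.4), Phlda3 (4.52), Sesn2 (3.28), Zmat3 (1.72) and Bbc3 (1.61), and only Mdm2 and Phlda3 were neighbours without overlap. These medians pool treatments, and the order of Cdkn1a and Bax differed among them, with mean TPM of 13.6 and 14.5 in endothelial EXO, 13.9 and 13.5 in mimic, and 32.4 and 22.5 in SCB. Shorter transcripts were left out of these levels because Bax drew 89.8% to 94.4% of its full TPM from them, with only 30.6% to 40.4% of its reads.

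Untreated injury against sham asks what ischemia itself did, and here only the authors' deposited tables speak. In tubular cells Cdkn1a, the p21 inhibitor of cyclin-dependent kinases, had the largest fold of the 10 genes, with a log2 fold for IRI over sham of 4.75 (SE 0.80, adjusted p 5.84e-08) in the authors' deposited table. That table also called Sesn2, a stress-induced inhibitor of mTORC1 signalling (1.19, SE 0.48, adjusted p 0.013), Gdf15, a secreted stress cytokine of the TGF-beta family (1.16, SE 0.77, adjusted p 0.0487), and Mdm2 (0.95, SE 0.41, adjusted p 0.0227), all higher in IRI. Bbc3, which encodes the BH3-only death protein PUMA, had a similar log2 fold of 1.21 with a wide error (SE 1.19, adjusted p 0.0583) in the authors' deposited table and was not called. The remaining members, Trp53 (0.10), Zmat3 (0.09), Bax (-0.02), Ccng1 (-0.20) and Phlda3 (0.36), were not called there. The count of 4 of 10 stands beside 3406 of 16874 genes called in that table (20.2%), and the median log2 fold was 0.66 over the 10 genes and 0.01 over all genes.

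In endothelial cells the authors' deposited table for IRI over sham called 2 of the 10 genes, both higher in IRI. They were Cdkn1a (log2 fold 3.62, SE 0.85, adjusted p 0.000131) and Bbc3 (1.54, SE 0.82, adjusted p 0.0441), against 853 of 19354 genes called in that table (4.41%). Gdf15 (0.75), Sesn2 (0.55), Zmat3 (0.39) and Mdm2 (0.23) had positive folds that were not called in the authors' deposited table. Cdkn1a was thus the 1 gene of the 10 called in both cell types.

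The tables that set untreated injury over each treatment share the IRI libraries, so their values are given side by side and are not separate evidence. In tubular cells 4 genes were called higher in untreated injury than under EXO, under mimic and also under SCB in the authors' deposited tables. They were Cdkn1a, Bbc3, Gdf15 and Sesn2. Cdkn1a had log2 folds of 5.91 (SE 0.80) for IRI over EXO, 6.29 (SE 0.91) for IRI over mimic and 3.68 (SE 0.82) for IRI over SCB in the authors' deposited tables. Bbc3 had 4.31 (SE 0.90), 3.76 (SE 1.09) and 2.18 (SE 1.02) in the same order, and Gdf15 had 3.57 (SE 0.68), 3.30 (SE 0.79) and 1.36 (SE 0.77), again in the authors' deposited tables. Sesn2 had 2.05, 1.06 and 1.35. All 12 of these values passed an adjusted p of 0.05. Scrambled miRNA, the treatment control, therefore also differed from untreated injury in these 4 genes, and the reanalysed IRI libraries and their earlier series cannot be told apart here.

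Beyond those 4 genes, the authors' deposited table for IRI over EXO in tubular cells called Trp53 higher in IRI (0.72, SE 0.33, adjusted p 0.0476) and Ccng1 lower in IRI (-0.46, SE 0.15, adjusted p 0.00733). That made 6 of 10 against 5968 of 19299 genes (30.9%) for IRI over EXO. For IRI over mimic 4 of 10 were called, against 4193 of 18329 (22.9%), and for IRI over SCB 4 of 10, against 3005 of 16874 (17.8%). Bax, Zmat3 and Phlda3, an inhibitor of Akt that competes for membrane lipids, were called in none of the 6 tubular tables at 0.05.

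Endothelial tables gave fewer calls. Cdkn1a had log2 folds of 2.09 (SE 0.95) for IRI over EXO and 2.25 (SE 1.13) for IRI over mimic, and Sesn2 had 0.89 (SE 0.40) and 1.07 (SE 0.43), all called in the authors' deposited tables. These were the 2 genes called in each, against 675 of 17888 (3.77%) for IRI over EXO and 2032 of 19841 (10.2%) for IRI over mimic. For IRI over SCB 0 of 10 were called, against 154 of 20333 (0.757%) in the authors' deposited table, with Cdkn1a at 0.15 (SE 0.29). Fold sizes are not comparable between the tables, since some are held near 0 relative to their errors.

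**Figure D2:**
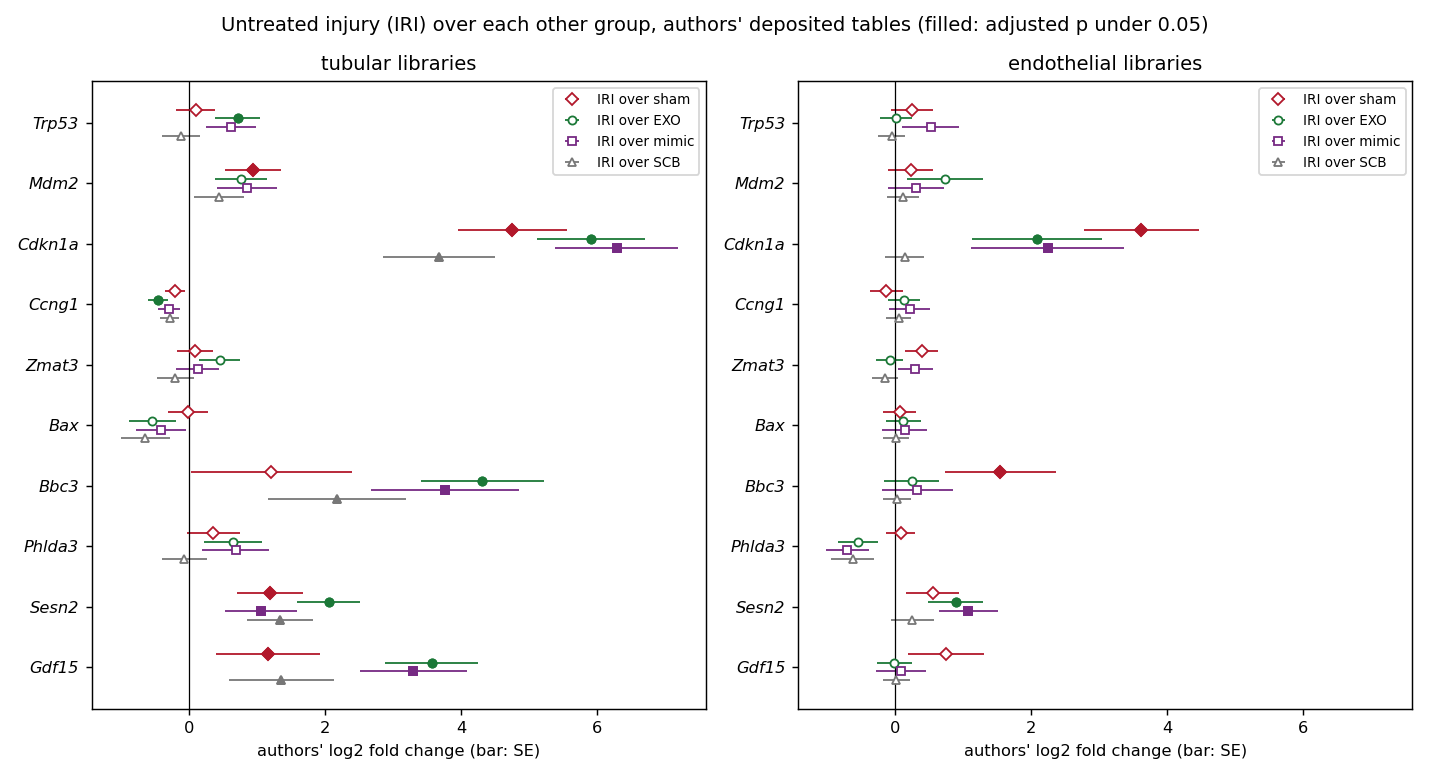
The authors' deposited log2 fold changes (horizontal axis, bars are their standard errors) of the 10 genes (vertical axis) for untreated injury (IRI) over sham, EXO, mimic and SCB, in tubular (left) and endothelial libraries (right). Filled symbols have an adjusted p under 0.05. Cdkn1a in tubular cells lies between 3.68 and 6.29 in all 4 tables. Fold sizes are not comparable between the tables.

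Set against sham, none of the 10 genes was called higher in treated tubular cells. The authors' deposited table for EXO over sham called Bbc3 (log2 fold -1.59, SE 1.29, adjusted p 0.0411) and Gdf15 (-1.56, SE 0.79, adjusted p 0.0218), both lower in EXO, while Cdkn1a had -0.18 (SE 0.37). That is 2 of 10, against 1782 of 15904 genes (11.2%). For mimic over sham 0 of 10 were called, against 184 of 17842 (1.03%), and the folds of the 10 genes in that deposited table all lay between -0.05 and 0.04. Gdf15 had a log2 fold of -0.04 (SE 0.12) there beside an unadjusted p of 0.0102, so sizes in that deposited table say little. In each endothelial table the single gene called was Phlda3. Its log2 fold in the authors' deposited tables was 0.73 (SE 0.30, adjusted p 0.0352) for EXO over sham, beside 1236 of 18377 genes called (6.73%), and 0.87 (SE 0.32, adjusted p 0.021) for mimic over sham, beside 2181 of 18864 (11.6%). Both tables share the sham libraries, and IRI over sham gave Phlda3 0.08 (SE 0.22).

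The comparison of treated with scrambled-miRNA mice asks what the exosomes or the mimic did beyond a control RNA, and it rests on single libraries. Values below are TMM-scaled CPM (a gene's reads relative to library size, not per length), scaled within a cell type. In tubular cells edgeR called the p21 gene Cdkn1a, Trp53 and Zmat3 lower under EXO, and called none of the 10 genes higher. These calls lay close to the threshold and were lost in several other settings, given below. Cdkn1a had 6.99, 7.27 and 5.89 CPM in the EXO libraries, 4.40 and 4.76 in the mimic libraries, and 9.73, 29.1 and 47.4 CPM in the SCB libraries. The EXO and mimic libraries lay close together and below each SCB library, while the SCB libraries were far apart, and SCB replicate 1 lay nearest to the treated ones. The log2 fold of Cdkn1a was -2.09 for EXO over SCB (SE 0.47, adjusted p 0.0422 with edgeR's quasi-likelihood test and Benjamini-Hochberg adjustment) and -2.64 for mimic over SCB (SE 0.55, adjusted p 0.121).

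Trp53 had 21.3, 18.2 and 17.7 CPM under EXO, 20.3 and 18.4 under mimic, and 26.3, 31.5 and 42.5 under SCB. The treated libraries did not overlap with SCB. Its log2 fold was -0.81 for EXO (SE 0.19, adjusted p 0.0473, edgeR) and -0.78 for mimic (SE 0.22, adjusted p 0.158). Zmat3, which encodes an RNA-binding zinc finger protein that steers splicing and mRNA decay, had 11.3, 10.4 and 15.7 CPM under EXO, 17.1 and 18.7 under mimic, and 21.1, 20.4 and 22.2 under SCB, with a log2 fold of -0.77 for EXO (SE 0.18, adjusted p 0.0481, edgeR) and -0.25 for mimic. All EXO and mimic libraries were below SCB, and the EXO libraries were below the mimic ones as well.

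Gdf15 missed the threshold in edgeR and passed it in DESeq2, with a fold nearly as large as that of Cdkn1a. It had 9.35, 11.9 and 24.2 CPM under EXO, 22.0 and 7.14 under mimic, and 34.1, 53.5 and 78.6 under SCB, again with no overlap. Its log2 fold was -1.87 for EXO over SCB (SE 0.49, adjusted p 0.0583 in edgeR and 0.001155 in DESeq2) and -1.92 for mimic over SCB (SE 0.56, adjusted p 0.168). Sesn2 had 27.2, 26.2 and 22.0 CPM under EXO, 50.7 and 35.3 under mimic, and 39.9, 52.6 and 25.4 under SCB, where SCB replicate 3 fell within the EXO range.

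The other members moved little or varied too much to call. Mdm2 had 47.6, 55.3 and 71.6 CPM under EXO, 44.8 and 46.1 under mimic, and 42.2, 66.8 and 51.9 under SCB, with log2 folds of 0.12 for EXO (SE 0.20) and -0.24 for mimic (SE 0.23). Both treated groups overlapped with SCB, unlike those of Trp53, while the mimic libraries lay below all EXO libraries. Ccng1 had 241, 237 and 254 CPM under EXO, 213 and 191 under mimic, and 182, 225 and 223 under SCB, so the EXO libraries lay above all SCB libraries (log2 fold 0.22, SE 0.14, adjusted p 0.387, edgeR). The pore-forming death effector Bax had log2 folds of -0.30 for EXO (SE 0.15) and -0.39 for mimic (SE 0.17). Bbc3 had -0.75 (SE 0.78) and -1.77 (SE 0.91), on only 5 to 52 reads per tubular library, and Phlda3 had -0.70 (SE 0.47) and -1.28 (SE 0.53) on 21 to 68 reads.

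In counts, edgeR called 3 of 10 genes for tubular EXO over SCB, all lower, where 765 of 14913 genes were called (5.13%, 406 higher and 359 lower), and the median log2 fold was -0.73 over the 10 genes and -0.02 over all genes. All EXO libraries lay below all SCB libraries in 4 of the 10 genes, against 14.5% of all genes tested, and above them in 1 of the 10 (Ccng1), against 15.9%. DESeq2 called 4 of 10, all lower, namely Gdf15 and the same 3, Cdkn1a (adjusted p 0.000248), Trp53 (0.00766) and Zmat3 (0.0082), where it called 1828 of 13744 genes (13.3%). In edgeR these 3 calls sit at the threshold. With an effective length offset they had adjusted p of 0.0696 for Cdkn1a, 0.17 for Trp53 and 0.124 for Zmat3, and in an edgeR fit of only the 2 groups 0.057, 0.0659 and 0.0617, at log2 folds of -2.08, -0.98 and -1.02 and of -2.10, -0.82 and -0.79. Leaving out any 1 EXO library or SCB replicate 2 left 0 of 10 called, with adjusted p up to 0.158 for Cdkn1a, 0.183 for Trp53 and 0.192 for Zmat3, and Zmat3 was also not called without SCB replicate 1 (0.0563). Without SCB replicate 1 Gdf15 passed (adjusted p 0.0411) and without SCB replicate 3 Sesn2 did (0.0314, edgeR). Injured-tubule markers moved with the same groups, at 18.1, 7.36 and 14.3 TPM in EXO and 26.9, 271 and 517 TPM in SCB replicates 1 to 3. The 4 neutrophil markers summed to 0.842 to 1.39 TPM in EXO and 4.76 to 30.5 TPM in SCB, and the 5 fibroblast and pericyte markers to 1.09 to 1.40 and 2.33 to 3.42 TPM. The part of these markers in the calls was not tested.

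**Figure D3:**
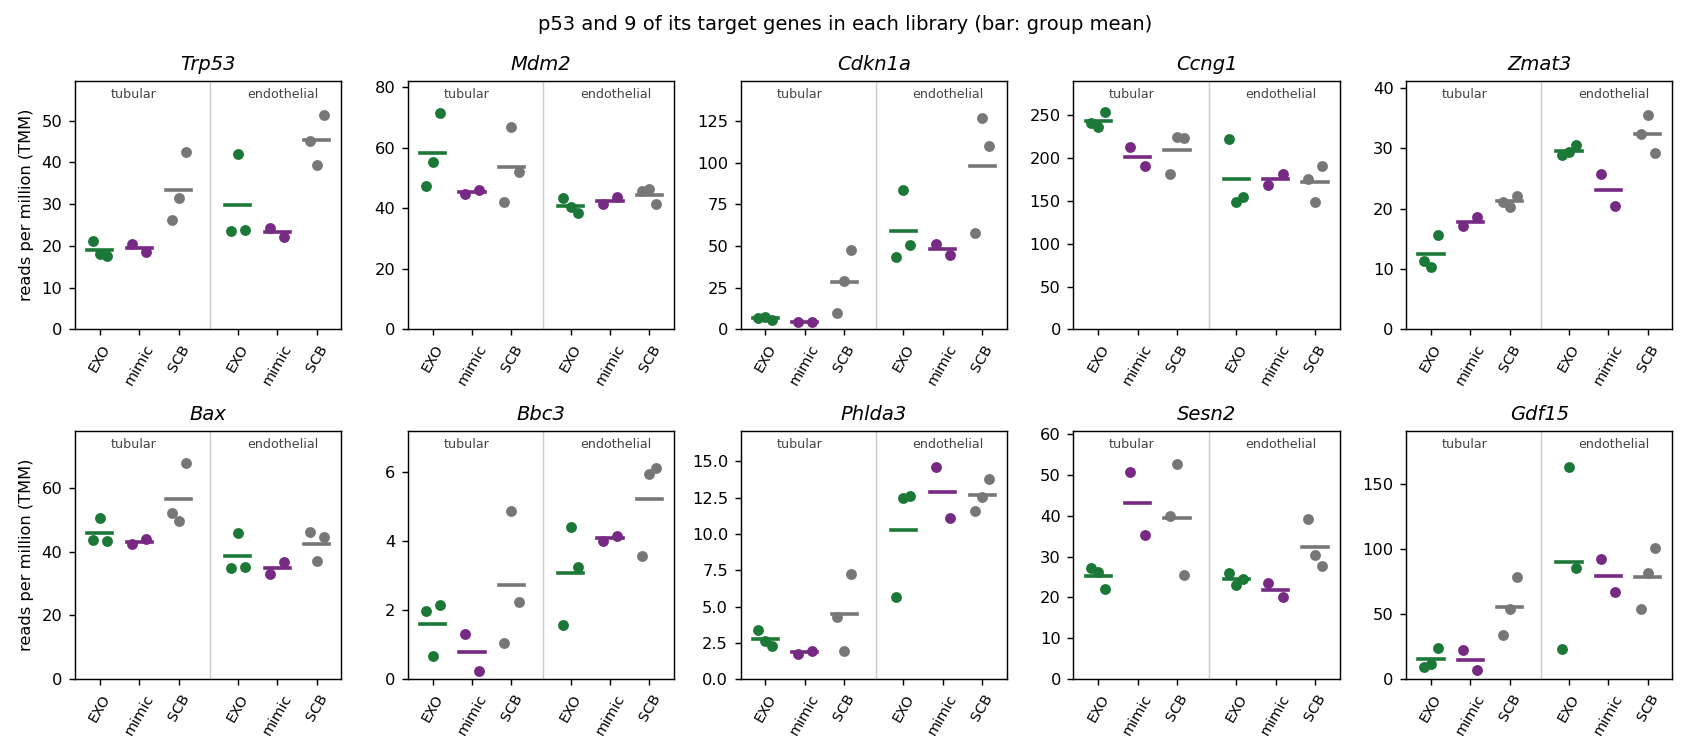
CPM (vertical axis, linear from 0) of Trp53 and 9 targets in each library, grouped as EXO, mimic and SCB in tubular (left of each panel) and endothelial cells (right). Points are libraries and bars are group means, and the 2 cell types were scaled separately. For Cdkn1a in tubular cells the treated libraries lie between 4.40 and 7.27 CPM and SCB between 9.73 and 47.4.

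For tubular mimic over SCB edgeR called 0 of the 10 genes, where 3 of 14913 genes were called (0.0201%) and 2427 had an unadjusted p under 0.05. Of the 10 genes, 5 had an unadjusted p under 0.05 (Cdkn1a, Gdf15, Trp53, Phlda3 and Bax), all with negative folds, and the median log2 fold was -0.59 beside -0.03 over all genes. Both mimic libraries lay below every SCB library in 6 of 10 genes, against 15.9% of all genes tested. DESeq2 called Cdkn1a, Gdf15 and Trp53 in this comparison, with 773 of 14901 genes in all (5.19%), and edgeR called Cdkn1a without SCB replicate 1 (log2 fold -3.04, adjusted p 0.00439). With 2 mimic libraries this comparison has little precision.

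The mimic was set against the exosomes too. Here 0 of the 10 genes were called by edgeR or by DESeq2, beside 0 of 14913 genes by edgeR (0%, with 1848 at an unadjusted p under 0.05) and 238 of 5947 by DESeq2 (4%). Sesn2 had the largest difference relative to its error, a log2 fold of 0.78 for mimic over EXO (SE 0.28, adjusted p 0.344, edgeR). The fold of Zmat3 was 0.52 on the same scale (SE 0.20, edgeR's adjusted p 0.369), and no other of the 10 genes had an unadjusted p under 0.05. Both mimic libraries lay below every EXO library in 4 of the 10 genes, against 20.6% of all genes tested. They lay above every EXO library in 2 of the 10, against 19.8%.

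**Figure D4:**
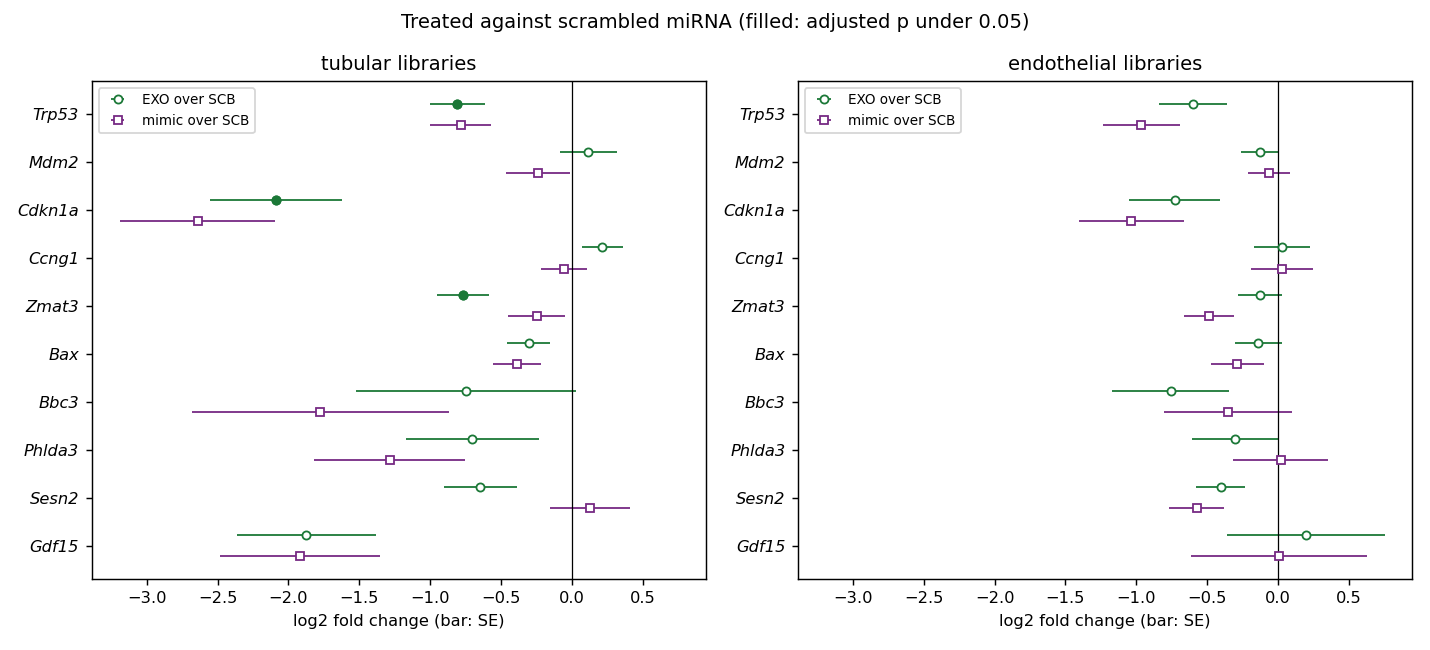
Log2 fold changes from edgeR (horizontal axis, bars are standard errors) of the 10 genes for EXO over SCB (circles) and mimic over SCB (squares), in tubular (left) and endothelial libraries (right). Filled symbols have an adjusted p under 0.05. The 3 filled circles are Trp53, Cdkn1a and Zmat3 in tubular EXO, at -0.81, -2.09 and -0.77.

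In endothelial libraries edgeR called none of the 10 genes for either treatment over SCB, while for mimic DESeq2 called Trp53 (adjusted p 0.025, lower in mimic). Cdkn1a had 43.6, 83.8 and 50.5 CPM under EXO, 51.3 and 44.6 under mimic, and 58.1, 127 and 110 under SCB. The mimic libraries lay below all SCB libraries, and EXO replicate 2 lay above SCB replicate 1. Its log2 fold was -0.73 for EXO over SCB (SE 0.32, adjusted p 0.438, edgeR) and -1.04 for mimic over SCB (SE 0.37, adjusted p 0.178).

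Trp53 had 23.5, 42.0 and 23.9 CPM under EXO, 24.3 and 22.1 under mimic, and 45.1, 39.3 and 51.4 under SCB, with log2 folds of -0.60 for EXO (SE 0.24, adjusted p 0.39, edgeR) and -0.96 for mimic (SE 0.27, adjusted p 0.113). All libraries but EXO replicate 2 were below SCB. Sesn2 had 25.9, 23.0 and 24.6 CPM under EXO, 23.4 and 20.2 under mimic, and 39.1, 30.5 and 27.8 under SCB, and so it did not overlap in either comparison, with log2 folds of -0.41 (SE 0.17) and -0.57 (SE 0.19). Gdf15 showed no common direction, with 22.9, 162 and 85.2 CPM under EXO, 91.8 and 66.7 under mimic, and 53.6, 81.7 and 101 under SCB. EXO replicate 1, which held the most proximal tubule transcripts, was its lowest library, and EXO replicate 2 was its highest. The log2 fold of Gdf15 for EXO was 0.20 (SE 0.56) with all libraries, 0.65 (SE 0.32) without EXO replicate 1 and -0.54 (SE 0.50) without EXO replicate 2. Cdkn1a was at -0.55 without EXO replicate 1 and -1.06 without EXO replicate 2, and Trp53 at -0.46 and -0.92 (adjusted p 0.367 and 0.0883, edgeR). Leaving out SCB replicate 1 gave -1.03 for Cdkn1a and -0.06 for Gdf15.

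The endothelial counts were 0 of 10 for EXO over SCB, where edgeR called 0 of 16316 genes (0%, with 1860 at an unadjusted p under 0.05) and DESeq2 called 412 of 16296 genes (2.53%) and 0 of the 10. For mimic over SCB they were 0 of 10, where edgeR called 0 of 16316 (0%, with 3176 at an unadjusted p under 0.05) and DESeq2 called 1355 of 16296 (8.31%), Trp53 among them. Unadjusted p was under 0.05 for 3 of the 10 in EXO over SCB (Cdkn1a, Trp53 and Sesn2) and 4 in mimic over SCB (the same 3 and Zmat3). All libraries lay below SCB in 1 of 10 for EXO, against 5.96% of all genes tested, and in 5 of 10 for mimic, against 21.8%. For mimic over EXO 0 of 10 and 0 of 16316 were called by edgeR (0%, with 661 at an unadjusted p under 0.05), and DESeq2 called 5 genes (0.0307%), none of the 10. Marker sums moved with the endothelial groups too. Thick ascending limb markers summed to 12339 and 13694 TPM in mimic and 3579 to 8195 TPM in SCB, 5 distal and collecting duct markers to 529.5 and 589 against 149 to 218 TPM, and neutrophil markers to 17.9 and 30.4 against 34.5 to 60.05 TPM. In EXO these sums were 5679 to 9464, 243 to 478 and 8.68 to 15.3 TPM. Their part in the lower endothelial values was not tested.

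Whether a treatment acted differently in the cell types was tested as an interaction. For EXO, the log2 fold in tubular cells minus that in endothelial cells was -2.05 for Gdf15 (SE 0.83), -1.33 for Cdkn1a (SE 0.62) and -0.62 for Zmat3 (SE 0.23), each with an unadjusted p under 0.05 and adjusted p of 0.592, 0.637 and 0.553 with edgeR. For mimic it was -1.60 for Cdkn1a (SE 0.69, adjusted p 0.284, edgeR). None of the 10 was called by edgeR or DESeq2 in either interaction. edgeR called 0 of 17143 genes in both (0%), with 1333 and 2650 genes at an unadjusted p under 0.05, and DESeq2 called 34 (0.199%) and 609 (4.12%). The calls in tubular EXO libraries and their absence in endothelial libraries are therefore not shown to differ.

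Between the cell types themselves the differences were large. Over the 3 treatments, tubular libraries were lower than endothelial libraries in Cdkn1a (log2 fold -2.57, SE 0.29), Phlda3 (-1.86, SE 0.25), Gdf15 (-1.65, SE 0.37), Bbc3 (-1.23, SE 0.41) and Zmat3 (-0.55, SE 0.10), and higher in Sesn2 (0.63, SE 0.14), Bax (0.52, SE 0.10), Ccng1 (0.52, SE 0.11) and Mdm2 (0.49, SE 0.11), all called by edgeR. Trp53 was not called (-0.25, SE 0.14, adjusted p 0.133), except without tubular SCB replicate 3 (adjusted p 0.0465). The 9 of 10 called stand beside 11355 of 17143 genes called (66.2%).

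Deposited transcript estimates allowed a look at which starts were used. Mdm2 has a constitutive promoter and a second one in its first intron, which p53 drives. Of its 9 annotated transcripts 5 start in exon 1 and 4 start downstream of it. One of these 4, a retained-intron transcript that starts near the 3′ end of the gene, was left out of both sides of the share, with 0 to 84.9 reads per library (0% to 11.6% of the gene's reads). Of the remaining reads, the other 3 downstream transcripts took 46.0%, 1.76% and 14.3% in endothelial EXO libraries, 58.8% and 49.6% in mimic libraries, and 83.9%, 60.7% and 75.1% in SCB libraries. Total Mdm2 CPM hardly differed (38.6 to 43.4 in EXO, 41.4 to 43.9 in mimic, 41.5 to 46.3 in SCB). Total Mdm2 TPM was lower in EXO, at 5.77 to 9.38 against 9.95 to 17.4 in SCB, with 12.9 and 13.7 in mimic. This was not particular to Mdm2, since mean endothelial TPM was lower in EXO than in SCB for each of the 10 genes. Ccng1 had a mean of 25.2 TPM in EXO and 35.4 in SCB, at 176 and 172 CPM. Zmat3 had 1.66 and 2.85 TPM, at 29.6 and 32.4 CPM. The cause of this shared shift was not tested. In the downstream share all EXO and mimic libraries were below all SCB libraries. The difference in means was -52.5 percentage points for EXO (two-sided exact permutation p = 0.1) and -19.0 for mimic (p = 0.2, exact permutation), and 0.1 is the smallest p that these group sizes allow, so neither can pass 0.05. These tests are among 6 shares compared in 6 ways, and no adjustment could lower their p.

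In tubular libraries the downstream share was 54.8%, 36.6% and 36.4% under EXO, 48.2% and 31.9% under mimic, and 42.8%, 29.6% and 61.4% under SCB, with full overlap (exact permutation p = 1 for EXO and 0.9 for mimic). Cdkn1a reads assigned to the upstream start, where the 19 of 20 element stands, were a small part of the gene, 4.83%, 1.27% and 3.34% in endothelial EXO, 11.2% and 4.52% in mimic, and 8.62%, 9.44% and 7.33% in SCB (exact permutation p = 0.1 for EXO and 0.8 for mimic, both two-sided). The EXO libraries were again below SCB, and the mimic libraries overlapped with it. In tubular libraries that share ran from 0 to 24.5% on at most 445 reads of the whole gene, and no order could be read from it. Transcripts of a gene share most of their sequence, so these shares are model estimates, and how far they are set by coverage of the 5′ ends was not tested. For Trp53 the near-identical transcripts Trp53-201 and Trp53-203 traded reads from library to library, with Trp53-201 at 0 in 11 libraries and at 81.5% to 93.4% in 5, and the exact permutation p of their shares ran from 0.3 to 1 over the 6 comparisons of each.

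**Figure D5:**
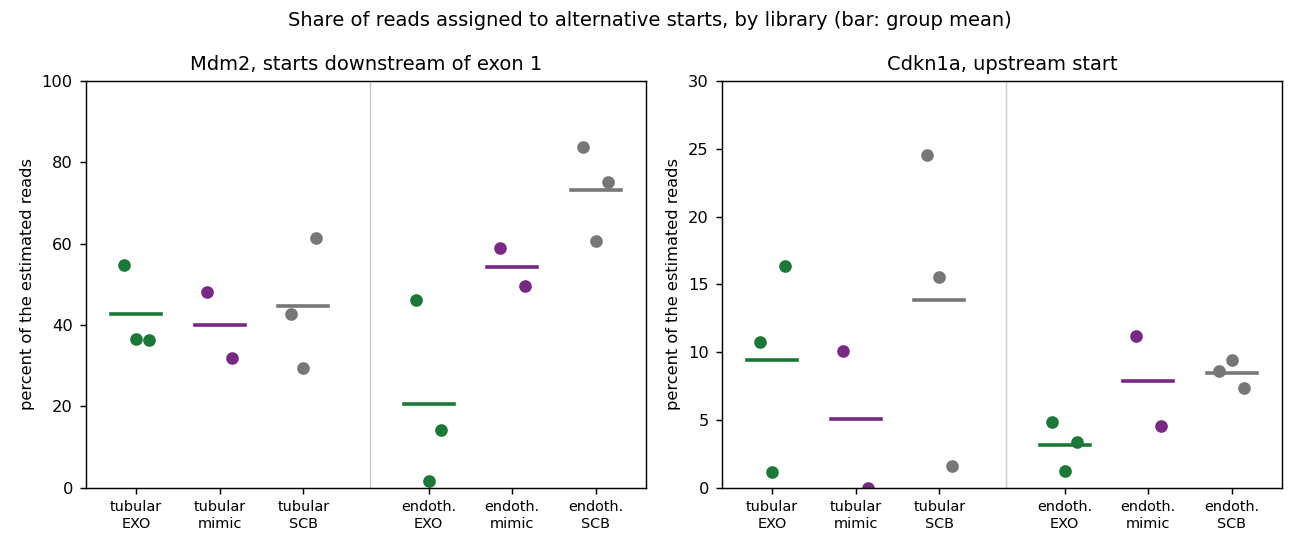
Percent of estimated reads (vertical axis) on Mdm2 transcripts that start downstream of exon 1, out of Mdm2 reads without the retained-intron transcript near the 3′ end (left), and on Cdkn1a transcripts from the upstream start, out of all Cdkn1a reads (right), by library and group, with bars at group means. Endothelial EXO libraries lie between 1.76% and 46.0% for Mdm2, below the SCB libraries at 60.7% to 83.9%.

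Of 27 other known p53 targets, 26 were tested in tubular cells. For EXO over SCB edgeR called 1 of 26, beside 5.13% of all genes. The called gene was Rrm2b, which encodes a ribonucleotide reductase subunit used in DNA repair. It was higher in EXO (log2 fold 0.89, SE 0.14, adjusted p 0.0243, edgeR), and the median over the list was -0.11. The death gene Pmaip1 (Noxa) had -1.17 (SE 0.29, adjusted p 0.0516, edgeR). DESeq2 called 2 of 26, Pmaip1 and Rrm2b, beside 13.3% of all genes. For tubular mimic over SCB edgeR called 0 of 26 and DESeq2 called 1, Pmaip1, beside 0.0201% and 5.19% of all genes. Of the 26, 4 had an unadjusted p under 0.05 in edgeR, led by Pmaip1 (-1.15) and Rrm2b (0.53). The median was -0.23. In endothelial cells 0 of 27 were called by edgeR or DESeq2 for EXO over SCB, beside 0% and 2.53% of all genes. At an unadjusted p under 0.05 in edgeR there were 3, led by Eda2r (-1.33) and E2f7 (-1.56). For mimic over SCB 0 of 27 were called by either, beside 0% and 8.31% of all genes. Here 6 had an unadjusted p under 0.05 in edgeR, led by Perp (-1.32) and Rrm2b (0.64).

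Against sham, the authors' deposited table called 8 of 26 listed targets in untreated tubular injury (20.2% of all genes were called there). Higher in IRI were the growth regulators Trp53inp1 (log2 fold 3.89) and Ddit4 (3.63), the death receptor Fas (2.42), Pmaip1 (1.32), Sesn1 (1.10) and Perp (0.79), and lower were Polk (-1.11) and Apaf1 (-0.92). The endothelial table of the authors' deposited set called 2 of 24 higher in IRI, Plk3 (1.78) and Gadd45a (1.25), beside 4.41% of all genes there. Between cell types edgeR called 19 of 27, beside 66.2% of all genes, a similar share. Higher in tubular libraries were Perp, Rps27l, Pmaip1, Plk3, Apaf1, Aen and Ei24, and lower were E2f7, Dram1, Plk2, Steap3, Btg2, Fas, Ddit4, Pml, Tnfrsf10b, Sesn1, Gadd45a and Xpc, with a median log2 fold of -0.20.

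Upstream of p53, 8 of 9 listed kinases and partners were tested, Cdkn2a not among them, and 0 were called by edgeR for EXO or mimic over SCB in either cell type. At an unadjusted p under 0.05 there were 2 for EXO and 1 for mimic in tubular cells, and 0 for EXO and 2 for mimic in endothelial cells. DESeq2 called 1 of 8, Chek1, in both tubular comparisons, beside 13.3% of all genes for EXO and 5.19% for mimic. It called none in endothelial cells. The checkpoint kinase gene Chek1 had the smallest p in tubular cells, with log2 folds of -1.59 for EXO (SE 0.44, adjusted p 0.0671, edgeR) and -2.94 for mimic (SE 0.54, adjusted p 0.107). In the authors' deposited tables for IRI over sham 1 of 8 was called in tubular cells, beside 20.2% of all genes. It was the DNA-dependent kinase gene Prkdc, lower in IRI (-0.99, adjusted p 0.0316 in the authors' deposited table). In endothelial cells 0 of 7 were called, beside 4.41%. Genes of the ATF4 stress pathway, which also acts on Gdf15 and Sesn2, comprise 6 symbols and 7 gene records, since Ddit3 has 2. edgeR called 0 of 7 records for EXO or mimic over SCB in either cell type (3 and 3 at an unadjusted p under 0.05 in tubular, 1 and 2 in endothelial cells). DESeq2 called Trib3 in tubular EXO, Asns and Trib3 in tubular mimic, Asns in endothelial mimic and none in endothelial EXO. Its shares of all genes were 13.3%, 5.19%, 8.31% and 2.53% in the same order. In edgeR Trib3 stood at -3.76 (SE 1.03) for tubular EXO and -5.04 (SE 1.29) for tubular mimic. For IRI over sham the authors' deposited tables called 4 of 7 records in tubular cells, beside 20.2% of all genes. They called 3 of 7 in endothelial cells, beside 4.41%. Higher in tubular IRI in the authors' deposited table were Trib3 (4.62), Chac1 (3.59), Asns (2.12) and Atf4 (1.34). Higher in endothelial IRI in the authors' deposited table were Asns (3.29), Trib3 (3.07) and Chac1 (2.46).

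Genes whose log2 CPM followed Cdkn1a most closely over the 8 tubular libraries, among genes averaging at least 10 CPM, were Lgals1 (Pearson r 0.99), Plin3 (0.99), Cd14 (0.99) and Havcr1 (0.99). Among the 10 genes Trp53 was the closest (0.94), followed by Bax (0.85) and Gdf15 (0.82), while Ccng1 (0.07) and Sesn2 (0.02) did not follow it. Over the 8 endothelial libraries the closest were Gm8730 (0.98), Kcnq1ot1 (0.97), Slc38a2 (0.97), Arg2 (0.96) and Mboat1 (0.95), and among the 10 genes Trp53 (0.80) and Bbc3 (0.76). These correlations are descriptions over libraries that share treatment groups, so they carry no p.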

How the data were processed

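The members and the comparison lists were chosen with earlier results of these data known. The tools named in the submitters' processing notes are DESeq2 and Salmon (0.13.1), on GRCm38, without settings. Estimated counts per transcript and TPM were made by the authors with Salmon, per the file headers. The log2 fold changes, p-values and adjusted p-values in the 12 comparison tables were computed by the authors and deposited there, and the deposited base mean (a normalized signal) is not printed. The tables' direction was read from their names. Within the deposited tables, IRI over sham minus treated over sham was correlated with IRI over that treatment (r = 0.71 to 0.88 across genes). This shows that the tables follow one another, but r would be the same with all tables reversed. Estimated counts were summed over transcripts of a gene ID and rounded, since they need not be whole. Each cell type was fitted with edgeR 4.0.16 in R 4.3.3 (TMM, filterByExpr with a minimum count of 10 and total of 15, quasi-likelihood F test, Benjamini-Hochberg at 0.05 over all genes tested), and both cell types together for interactions. The labels give 3 male mice per group and do not tie a library to a mouse, so p-values measure the spread between libraries. Standard errors are |log2 fold| over the root of F. The procedure was tested on simulated data. DESeq2 1.42.0, RLE factors, no filter, an effective length offset, left-out libraries, fits of only the 2 groups compared and a block on replicate or library number were tried as alternatives. All 10 genes, called genes of the lists (or the 2 of smallest p where none was called), and the 5 genes most like Cdkn1a per cell type were named, except 1 tubular gene that is not reported here.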

Additional observations from a re-analysis of the deposited data

How the results depend on the processing

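No member whose fold in the report exceeded its error changed sign in 540 single-gene values under other settings or 700 with a library left out. Smaller folds changed sign in 18 and 46 of them, and in 5 of the 46 the new fold exceeded its error: without endothelial EXO replicate 1, Ccng1 in EXO over SCB (-0.18) and mimic over EXO (0.21), without endothelial EXO replicate 2, Gdf15 in the same comparisons (-0.54 and 0.55), and without tubular mimic replicate 2, Gdf15 in mimic over EXO (0.56). Of all these values 489 and 637 kept both direction and side of the threshold. The count of members called was most fragile in tubular EXO over SCB, 3 in the report. It was 5 without a low-count filter (Gdf15 and Sesn2 added), 1 in a fit of only the 2 groups (Gdf15 alone), 0 with an effective length offset, and 0 to 4 when a library was left out. The genes called there, 765, became 1828 with DESeq2, 2014 without a filter, 453 with only the 2 groups, 48 with the length offset, and 1 to 1335 when a library was left out. For tubular mimic over SCB members called were 3 with DESeq2 and 3 without a filter, and 0 to 1 with a library left out, and genes called, 3, became 773, 1354, 0 with the length offset, 0 with only the 2 groups, and 0 to 494. For tubular mimic over EXO members called were 1 without a filter (Sesn2), and genes called 238 with DESeq2, 396 without a filter, 284 with only the 2 groups and 0 to 1 with a library left out. In endothelial cells, EXO over SCB gave 1 member without a filter (Cdkn1a) and 412 genes with DESeq2, 896 without a filter and 0 to 55 with a library left out. Endothelial mimic over SCB gave 1 member with DESeq2 and 1 with only the 2 groups (Trp53), 2 without a filter (Cdkn1a and Trp53), and 1355, 1494 and 2038 genes in these settings. Endothelial mimic over EXO gave 5 genes with DESeq2 and 661 without a filter. The interactions gave 34 and 609 genes with DESeq2, 503 and 1716 without a filter, with Cdkn1a and Gdf15 (2 members) called in both, and 0 to 76 and 0 to 105 genes with a library left out. Between cell types the length offset ended the calls of Bbc3 and Zmat3 (adjusted p 0.115 and 0.0692), and 9 to 10 members were called with a library left out. The cause of these shifts was not tested. At an adjusted p of 0.1 the authors' deposited tables called 35 members in place of 28.

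Same-numbered SCB and EXO libraries did not deviate together in either cell type (r = -0.07 to 0.00 in tubular, -0.01 to 0.24 in endothelial), nor did tubular and endothelial libraries with the same library number (-0.11 to 0.09), so numbers were not taken as pairs. Such correlations between different cell preparations cannot tell whether libraries that share a number came from the same mouse, and the labels do not say. Fits over both cell types took all 16 libraries as separate. With the replicate number as a block, tubular EXO over SCB had 0 members and 286 genes called, tubular mimic over SCB 8 genes and endothelial mimic over SCB 661. With the shared library number as a block 8 members stayed called between cell types, Bbc3 not, as in the same libraries without the block, a setting added after the data were seen. Depth limits Bbc3 and Phlda3 in tubular libraries, at 5 to 52 and 21 to 68 reads.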
